A study of Mus musculus with 6 samples.

Results

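The enzymes that turn squalene epoxide into cholesterol were examined in neuro2a (N2a) cells, a mouse neuroblastoma line, after knockdown of the transcription factor NF-Y. The 9 genes were taken in pathway order as Lss, Cyp51, Tm7sf2, Msmo1, Nsdhl, Hsd17b7, Ebp, Sc5d and Dhcr7. Their probes were found by the RefSeq accession that the scanner tables give for each probe, which yielded 12 probes of 42126 tested and 9 genes of 16490. Membership rested on the pathway and no measured value entered the rule, but the list was chosen with earlier results of these data known. Tm7sf2, Nsdhl and Hsd17b7 had 2 probes each, and the other genes had 1.

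Control cells received the empty vector pcDNA6.2-GW/EmGFP-miR, and knockdown cells received the same vector carrying miR RNAi sequences against NF-YA and NF-YC. Both were transiently transfected and incubated for 2 days, and total RNA was labelled with Cy3 and hybridised to single-colour Agilent SurePrint G3 Mouse GE 8x60K arrays. There were 3 control and 3 knockdown arrays. A control with a non-targeting RNAi sequence was not analysed here, and a sort of transfected cells is not given in the sources used here. The labels do not say whether replicates came from separate cultures, so p-values measure the spread between these samples, which may be technical. Because each array carried RNA of a whole culture, fewer cells holding a transcript and less of it per cell cannot be told apart.

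Cholesterol is built from acetyl-CoA in the endoplasmic reticulum. The mevalonate pathway ends in squalene, which is oxidised to its epoxide, closed into the ring system of lanosterol and then stripped of methyl groups, reduced and desaturated until cholesterol remains. Transcription of these enzymes is known to rise when membrane sterol is low, through the SREBP factors, which act together with NF-Y or Sp1 bound nearby. NF-Y is a trimer of NF-YA, NF-YB and NF-YC that binds the CCAAT box. Neurons and glia make their own cholesterol, since the blood-brain barrier keeps out circulating sterol.

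CCAAT boxes lay in the RefSeq promoters of all 9 genes. Each promoter window ran from 250 bases before the transcription start to 50 bases from it, in assembly GRCm38.p6, and CCAAT was searched on both strands. Of 32851 such windows in the mouse annotation, 37.4% held the motif, and of 13098 tested genes with a window 42.6% held it in at least 1. The 9 genes had 11 windows with 18 matches, of which 16 lay before the start. The upstream box nearest the start of each gene is shown with 10 bases on either side, read on the strand on which it spells CCAAT, since this is the sequence that the targeted factor is known to bind. Capitals mark the box, and the strand given is that of the letters shown.

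Lss (chr10:76531533-76531557, minus strand): gcgagctcggCCAATcagagcatca
Cyp51 (chr5:4104712-4104736, minus strand): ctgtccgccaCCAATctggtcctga
Tm7sf2 (chr19:6067883-6067907, plus strand): agcacagtagCCAATcagcgctggg
Msmo1 (chr8:64733619-64733643, minus strand): gtggggcggaCCAATtacgacaggc
Nsdhl (chrX:72918491-72918515, minus strand): atgattttgcCCAATgaggctagtc
Hsd17b7 (chr1:169969203-169969227, plus strand): cgcacctcgaCCAATcaaggctcgg
Ebp (chrX:8193553-8193577, plus strand): atctgacgaaCCAATcagtacaggg
Sc5d (chr9:42264310-42264334, plus strand): aggcagccggCCAATcagcagccgg
Dhcr7 (chr7:143830155-143830179, minus strand): tcacagacgaCCAATcggaagtgga

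In 5 of the 9 stretches, those of Lss, Tm7sf2, Hsd17b7, Ebp and Sc5d, the box was followed by the letters ca. The first base of the nearest box lay 62 bases before the start in Lss, 29 in Cyp51, 47 in Tm7sf2, 55 in Msmo1, 20 in Nsdhl, 12 in Hsd17b7, 55 in Ebp, 24 in Sc5d and 49 in Dhcr7. Msmo1 held further boxes at 96 and 160 bases before the start, Hsd17b7 at 73 and 165, Ebp at 170 and Nsdhl at 109. Nsdhl also held 2 boxes after the start. Dhcr7 has 3 annotated starts, and only the window of the third held the box, with another at 85 bases before that start. The promoter table does not tie that start to the transcript read by the probe. A box in a window is a match of letters and was not tested as a binding site.

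For 4 genes the 180 bases before the start are given on the strand of the gene, with CCAAT or its reverse complement ATTGG in capitals. Tm7sf2 and Ebp had the largest changes among the 9 genes, and Hsd17b7 was the gene that was not called. Nsdhl had the most boxes in its whole window, which includes boxes after the start that are not printed here.

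Tm7sf2 (chr19:6067851-6068030, minus strand): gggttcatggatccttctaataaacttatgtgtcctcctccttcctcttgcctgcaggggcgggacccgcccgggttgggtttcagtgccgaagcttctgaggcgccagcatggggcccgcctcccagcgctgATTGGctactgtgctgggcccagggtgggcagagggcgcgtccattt
Nsdhl (chrX:72918341-72918520, plus strand): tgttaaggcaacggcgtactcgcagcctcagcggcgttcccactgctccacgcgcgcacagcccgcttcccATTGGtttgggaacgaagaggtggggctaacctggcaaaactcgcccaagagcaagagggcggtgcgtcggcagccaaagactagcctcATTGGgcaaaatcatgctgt
Hsd17b7 (chr1:169969206-169969385, minus strand): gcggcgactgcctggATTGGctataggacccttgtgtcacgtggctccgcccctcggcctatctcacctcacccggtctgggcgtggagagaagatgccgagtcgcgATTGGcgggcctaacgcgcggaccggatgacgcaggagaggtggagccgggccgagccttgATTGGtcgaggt
Ebp (chrX:8193513-8193692, minus strand): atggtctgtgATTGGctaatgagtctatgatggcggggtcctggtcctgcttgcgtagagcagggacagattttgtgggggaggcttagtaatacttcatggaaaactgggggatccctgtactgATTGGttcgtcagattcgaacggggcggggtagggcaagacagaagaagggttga

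The GC box GGGCGG, the letters bound by the Sp1 family, occurred on either strand in at least 1 window of all 9 genes, against 35.7% of all windows and 58.8% of tested genes with a window. A sterol regulatory element spelled TCACNCCAC, the form known from the LDL receptor gene, occurred in the windows of 0 of the 9 genes, against 1.24% of all windows and 1.44% of tested genes with a window. No CCAAT box overlapped a match of the other motifs.

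**Figure D1:**
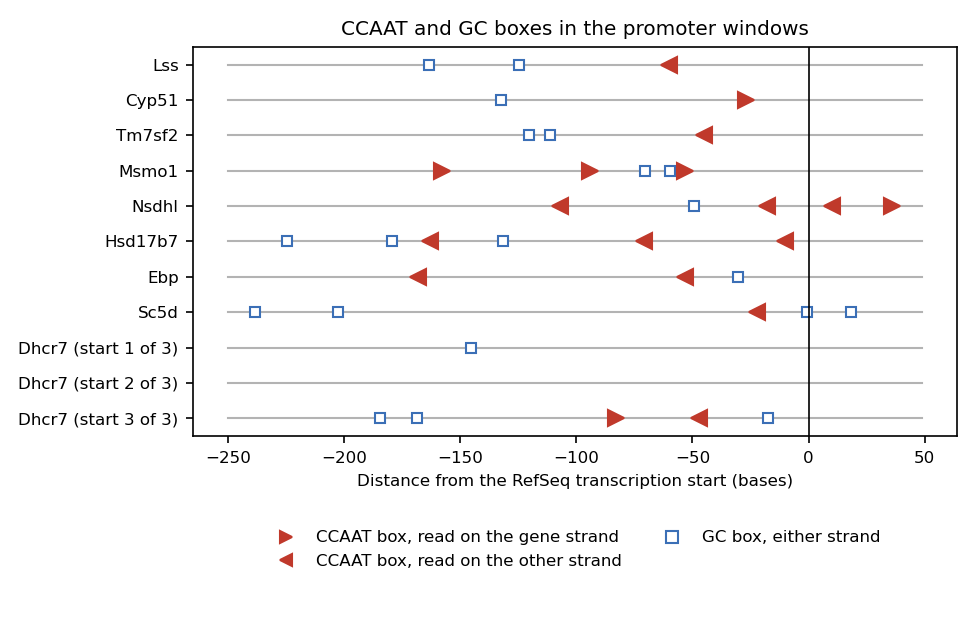
Positions of CCAAT boxes (red arrowheads, pointing right where the gene strand reads CCAAT and left where the other strand does) and GC boxes (open blue squares) along the promoter windows of the 9 genes, with the distance in bases from the RefSeq transcription start on the horizontal axis. Each of the 9 genes has at least 1 CCAAT box, Hsd17b7 and Msmo1 have 3 before the start, and only the third of the Dhcr7 starts has any.

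The targeted genes were lower on the knockdown arrays, as the labels state. Nfyc fell by 1.81 on the log2 scale (SE 0.045, limma adjusted p = 0.000323) and Nfya fell by 0.76 (SE 0.055, limma adjusted p = 0.00128), while the untargeted Nfyb rose by 0.83 (SE 0.060, limma adjusted p = 0.00131). Normalized signal is here the log2 of the processed intensity minus the 75th percentile of the array, so that 0 is the level of that percentile, and a change is the knockdown mean minus the control mean. The 75th percentile was 718 to 754 intensity units, and 61.9% to 66.2% of spots were well above background. All 14 sympathetic neuroblast markers (such as Hand2 and Dbh) were well above background on all 6 arrays.

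Of the 9 enzymes, 8 were called lower in knockdown cells and 0 were called higher. A gene was called where limma gave an adjusted p under 0.05 with more than a 1.5-fold change, and 5.0% of the 16490 genes tested were called lower by the same rule and 3.91% higher. These shares are 824 and 644 genes, against 1175 and 382 when arrays were scaled on the median and 584 and 275 under normexp with the 75th percentile, and the count of enzymes called was 8 in each case. The uncalled enzyme was Hsd17b7, whose change was near 0. The median change over the 9 genes was -1.04, beside 0.0053 over all genes tested. In 8 of the 9 genes the 3 knockdown arrays all lay below the 3 control arrays, which was the case in 27.1% of all genes. All 9 were well above background on 6 of 6 arrays, and no spot was saturated.

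**Figure D2:**
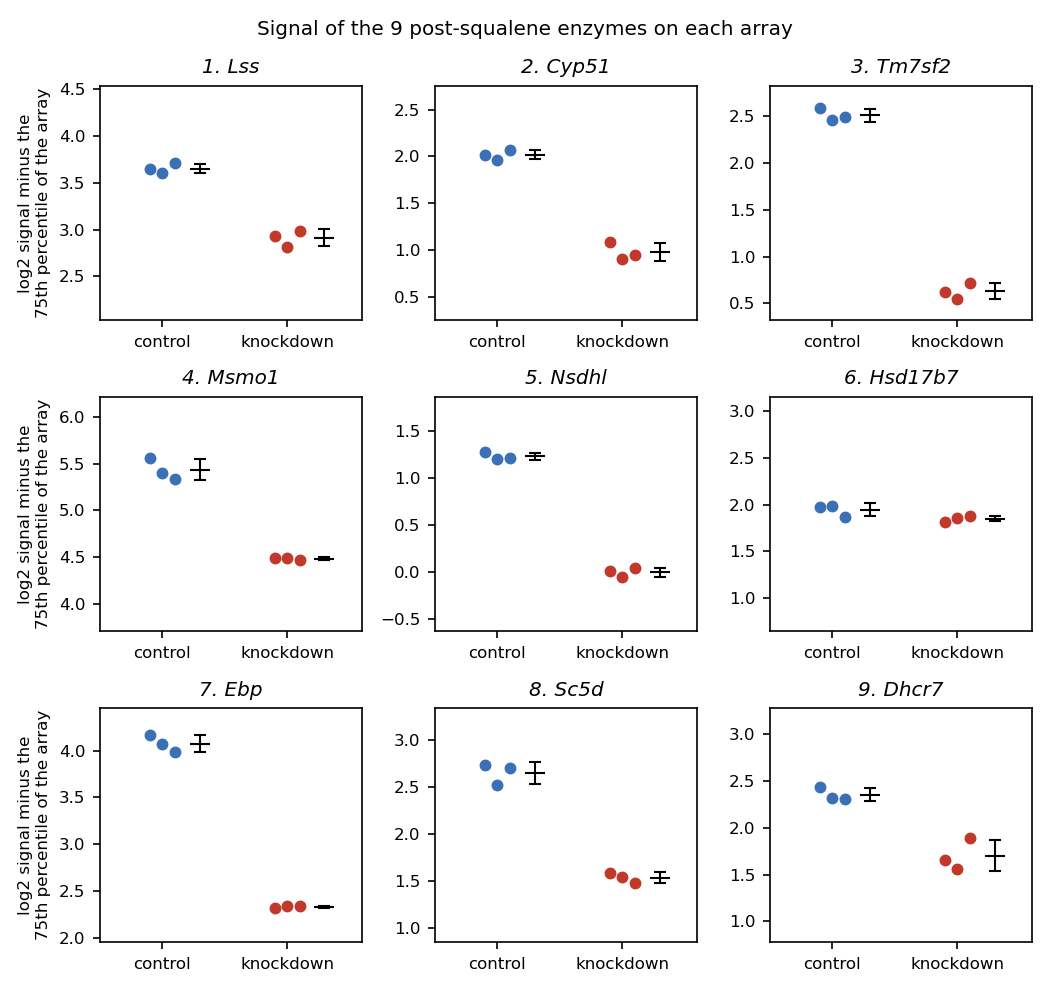
Normalized signal (log2 intensity minus the 75th percentile of the array) of each enzyme on the 3 control arrays (blue) and 3 knockdown arrays (red), in pathway order from 1 to 9, with black bars for the mean and SD of the group. Each panel spans the same log2 range around its own centre. The groups are apart in 8 panels and overlap in that of Hsd17b7.

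Lss, lanosterol synthase, folds squalene epoxide into the ring system of lanosterol and so makes the first sterol of the pathway. Its signal was 3.64, 3.60 and 3.71 on control arrays 1 to 3 and 2.93, 2.81 and 2.99 on knockdown arrays 1 to 3 (probe A_51_P296487). The lowest control array exceeded the highest knockdown array by 0.61. Lss thus fell by 0.74 (SE 0.064, limma adjusted p = 0.00201), to 59.9% of control.

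Cyp51, the cytochrome P450 that demethylates lanosterol, measured 2.02, 1.97 and 2.07 on control arrays and 1.09, 0.91 and 0.95 on knockdown arrays (A_52_P164161). The groups were 0.88 apart at their closest. The change was -1.04 (SE 0.065, limma adjusted p = 0.000914), and 48.8% of the control level was left.

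Tm7sf2 reduces the double bond that the demethylation leaves in the ring. It gave 2.59, 2.45 and 2.48 on control arrays and 0.63, 0.54 and 0.72 on knockdown arrays (A_52_P35064), the widest separation of the 9 genes with 1.73 between the nearest arrays. Tm7sf2 fell by 1.88 (SE 0.067, limma adjusted p = 0.000331) to 27.2% of control. Counted from the lowest change, it stood at rank 33 of the 16490 genes. Its other probe (A_55_P2171406) read 0.70, 0.47 and 0.54 in control and -1.28, -1.41 and -1.24 in knockdown, a change of -1.88 as well.

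Msmo1, the oxygenase that begins removal of the paired methyl groups, read 5.56, 5.40 and 5.34 on control arrays and 4.49, 4.50 and 4.47 on knockdown arrays (A_51_P209372). The knockdown arrays lay close together, with an SD of 0.016 against 0.11 in control. Msmo1 fell by 0.95 (SE 0.069, limma adjusted p = 0.00131), to 51.8% of control.

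Nsdhl takes off the carboxyl group that Msmo1 makes, and human NSDHL is mutated in CHILD syndrome. Its values were 1.28, 1.21 and 1.22 in control and 0.0075, -0.057 and 0.036 in knockdown (A_66_P137462). The gap between the groups was 1.17 and the change -1.24 (SE 0.048, limma adjusted p = 0.000369), leaving 42.4% of control. A dimmer probe of the gene (A_55_P1976395) changed by -1.24 too (SE 0.093, limma adjusted p = 0.0014), from -1.75, -1.97 and -1.88 to -3.24, -2.99 and -3.09.

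Hsd17b7 reduces the ketone that Nsdhl leaves, and the same protein turns estrone into estradiol. Its chosen probe (A_55_P1997936) read 1.98, 1.99 and 1.87 on control arrays and 1.82, 1.85 and 1.88 on knockdown arrays. The groups overlapped, since control array 3 was below knockdown array 3. The change of -0.095 (SE 0.052, limma adjusted p = 0.263) had a 95% confidence interval of -0.23 to 0.038, which corresponds to 85.4% to 103% of the control level, and it turned to 0.0045 under normexp background correction with quantile normalization. The other probe (A_52_P566605) read 1.54, 1.52 and 1.61 in control and 1.41, 1.38 and 1.45 in knockdown. There the groups did not overlap, but the change of -0.14 (SE 0.048) did not pass the adjustment either (limma adjusted p = 0.0934). With the mean of the gene's probes the change was -0.12 (SE 0.031, limma adjusted p = 0.0312). That adjustment ran over 16490 genes and not over all probes, so the adjusted p-values are not on the same footing. The change stayed under the fold change of 1.5.

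Ebp, the isomerase that moves the ring double bond and also binds emopamil and antiestrogens, read 4.16, 4.07 and 3.99 on control arrays and 2.32, 2.34 and 2.34 on knockdown arrays (A_51_P429682). The SD on the knockdown arrays was 0.011, and the groups were 1.65 apart. Ebp fell by 1.74 (SE 0.057, limma adjusted p = 0.000323) to 29.9% of control, at rank 52 of all genes from the lowest change.

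Sc5d adds a double bond to lathosterol and so makes 7-dehydrocholesterol. It gave 2.74, 2.52 and 2.70 on control arrays and 1.58, 1.54 and 1.47 on knockdown arrays (A_51_P418056). All knockdown arrays lay at least 0.93 below the controls. The change was -1.12 (SE 0.076, limma adjusted p = 0.0011), or 46.0% of control.

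Dhcr7 reduces the product of Sc5d to cholesterol, and human DHCR7 is mutated in Smith-Lemli-Opitz syndrome. Its values were 2.43, 2.32 and 2.30 in control and 1.66, 1.56 and 1.89 in knockdown (A_55_P2022337). Knockdown array 3 was the highest of its group, 0.42 below the lowest control. Dhcr7 fell by 0.65 (SE 0.10, limma adjusted p = 0.0104), to 63.8% of control with an interval of 53.5% to 76.0%. It had the smallest change and the largest SE of the 8 called genes. Without knockdown array 2 its change was -0.58 (limma adjusted p = 0.0312), under the fold change of 1.5, and with the slide row as a block it was -0.69 (limma adjusted p = 0.0756).

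**Figure D3:**
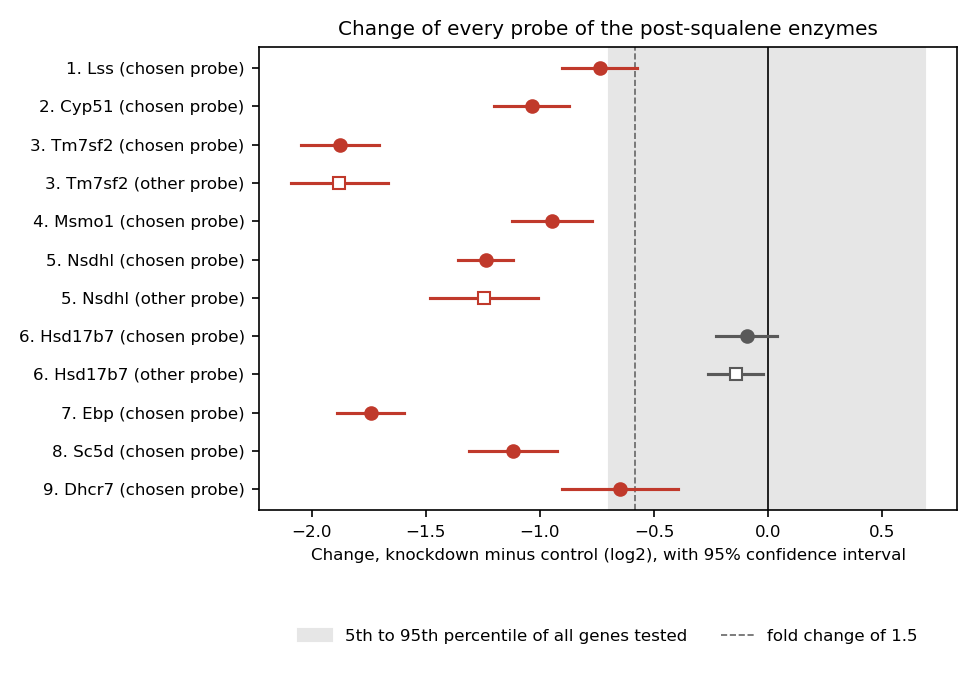
Change of each of the 12 probes, knockdown minus control on the log2 scale, with its 95% confidence interval. Filled circles are the chosen probe of a gene and open squares its other probe, red marks were called lower and grey marks were not. The band spans the 5th to 95th percentile of all genes tested (-0.70 to 0.69), and the dashed line marks a 1.5-fold decrease. The 10 called probes include both of Tm7sf2 and both of Nsdhl, and the 2 uncalled probes are those of Hsd17b7.

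Over the 12 probes, 10 were called lower, beside 3.82% of all 42126 probes. Where a gene had 2 probes, both received the same call. They target the same transcript and are not replicates.

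The size of the change went up and down along the pathway. The steps below compare probes of different genes, and 2 probes of 1 gene can differ. For Cyb5b they changed by -1.54 and -0.81, and for Stard4 by -1.04 and -0.62. The 2 probes of Tm7sf2, Nsdhl and Hsd17b7 were closer, at -1.88 and -1.88, -1.24 and -1.24, and -0.095 and -0.14. The other enzymes had 1 probe each, and the part of the probe in the steps was not tested. From Lss to Cyp51 the change became more negative by 0.30 (SE 0.058), and from Cyp51 to Tm7sf2 by a further 0.84 (SE 0.080). Msmo1 then changed less than Tm7sf2, with a difference of 0.93 (SE 0.069). Nsdhl minus Msmo1 was -0.29 (SE 0.059), close in size to the step from Lss to Cyp51. The largest steps lay on either side of Hsd17b7, at 1.14 (SE 0.048) from Nsdhl and -1.65 (SE 0.031) on to Ebp. Sc5d minus Ebp was 0.62 (SE 0.087) and Dhcr7 minus Sc5d was 0.47 (SE 0.137). For each of the 8 neighbouring pairs the per-array difference between the genes did not overlap between control and knockdown arrays. A two-sided exact permutation test gave p = 0.1 for each pair and 0.1 after Benjamini-Hochberg adjustment over the 8, which is the smallest value this test can give with 3 against 3 arrays, so it cannot reach 0.05.

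In the median over the 9 genes the knockdown arrays differed less among themselves than from the controls. The median deviation of the 9 genes from their control means was -0.94 on knockdown array 1, -1.11 on array 2 and -1.07 on array 3. Array 2 was the lowest of the 3 for 5 genes, and array 3 was the highest for 6. All arrays sat on 1 slide. Slide row 1 held the 3 control arrays and knockdown array 1, and row 2 held knockdown arrays 2 and 3, so row and group are partly confounded. Within row 1 all 9 genes were lower on knockdown array 1 than on the lowest control array. The changes there were -0.72 for Lss, -0.93 for Cyp51, -1.88 for Tm7sf2, -0.94 for Msmo1, -1.23 for Nsdhl, -0.13 for Hsd17b7, -1.75 for Ebp, -1.07 for Sc5d and -0.69 for Dhcr7. With only 1 knockdown array, which is assumed to vary like the controls, limma called 0 of the 16490 genes in row 1. The smallest adjusted p was 0.0515, and at an unadjusted p below 0.05 there were 2289 genes lower and 2609 higher, among them 8 of the 9 enzymes. With the row as a block over all 6 arrays, 7 of the 9 were called lower, all but Hsd17b7 and Dhcr7.

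**Figure D4:**
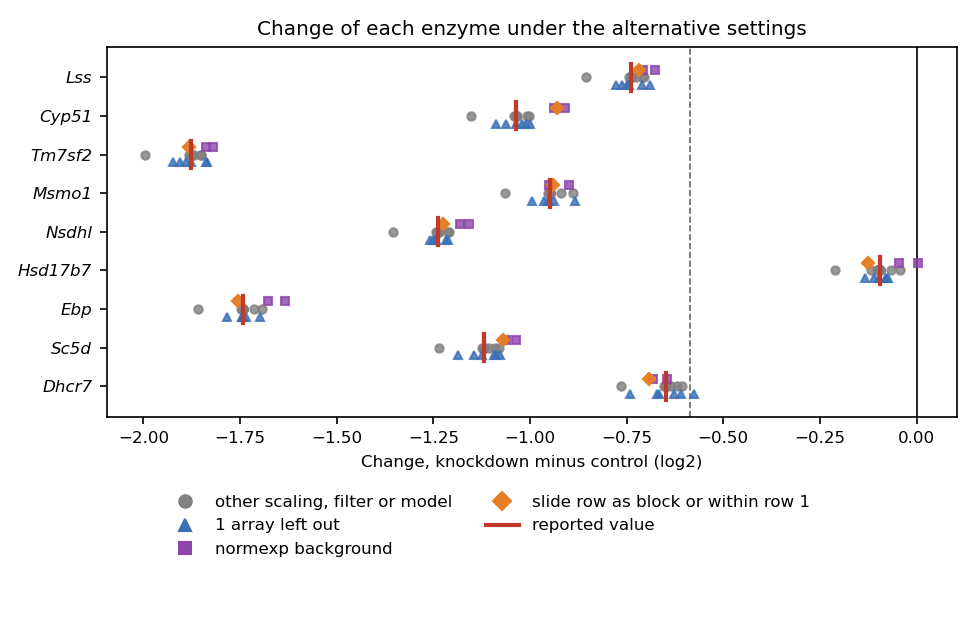
Change of each enzyme (knockdown minus control, log2) as reported (red bar) and under other settings, with blue triangles for leaving out 1 array, purple squares for normexp background correction, orange diamonds for the slide row as a block or the comparison within row 1, and grey circles for the remaining scalings, filters and models. The dashed line marks a 1.5-fold decrease. Only Hsd17b7 has a value above 0, 0.0045 under normexp with quantile normalization, and Dhcr7 and Lss are the called genes nearest the dashed line.

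Partners and relatives of the same steps were read next. Lbr, the nuclear envelope protein that also acts as a sterol reductase at the step of Tm7sf2, read 2.69, 2.70 and 2.75 on control arrays and 2.44, 2.40 and 2.45 on knockdown arrays. Its change of -0.28 (SE 0.042) had a limma adjusted p of 0.00941 but stayed under the fold change of 1.5, so of the 2 reductases Tm7sf2 was called and Lbr was not. A dimmer probe of Lbr changed by -0.11 (SE 0.053, limma adjusted p = 0.216), with overlapping groups. Erg28, known from yeast as a scaffold that tethers the demethylation enzymes in the endoplasmic reticulum membrane, read 4.90, 4.88 and 4.80 in control and 4.14, 4.06 and 4.11 in knockdown. It fell by 0.76 (SE 0.050, limma adjusted p = 0.00105). Ebpl, a relative of Ebp without known isomerase activity, changed by 0.043 (SE 0.047, limma adjusted p = 0.569). Its groups overlapped. Faxdc2 had no matched probe.

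Upstream, 7 of the 10 mevalonate pathway genes up to Sqle were called lower and 0 higher, with a median change of -0.65. The largest of these changes were those of Acat2, the cytosolic thiolase at the start of the pathway (-1.60, SE 0.071, limma adjusted p = 0.000442), Mvd (-0.94, SE 0.057, limma adjusted p = 0.000818) and Hmgcs1 (-0.90, SE 0.045, limma adjusted p = 0.000543). Among the electron donors, 2 of 6 were called lower, with a median of -0.27. They were the cytochrome b5 proteins, which pass electrons to desaturases and oxygenases of the pathway. Cyb5b, the form of the outer mitochondrial membrane, fell by 1.54 (SE 0.054, limma adjusted p = 0.000331), and its other probe by 0.81. Cyb5a, the form of the endoplasmic reticulum, fell by 0.66 (SE 0.049, limma adjusted p = 0.00139), but by 0.57 and 0.53 under normexp, below the fold threshold. Por, the reductase that feeds Cyp51, changed by -0.18 (SE 0.048, limma adjusted p = 0.0508).

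Of 7 genes of SREBP control, 2 were called lower and 0 higher, with a median of -0.28. Scap, the escort of SREBP to the Golgi, fell by 0.80 (SE 0.045, limma adjusted p = 0.000705), and Srebf1 by 0.67 (SE 0.057, limma adjusted p = 0.00192). Srebf2 changed by -0.57 (SE 0.048, limma adjusted p = 0.00184), under the fold change of 1.5, and its other probe by -0.51. Srebf2 was called under 3 of the 22 alternatives that kept the thresholds. Of 5 sterol uptake genes, Stard4, a cytosolic sterol carrier, was the 1 called lower (-1.04, SE 0.084, limma adjusted p = 0.00167), and the median was -0.31. The other probe of Stard4 changed less, by -0.62 (SE 0.058, limma adjusted p = 0.00238). The 7 LXR and oxysterol genes tested had a median of 0.031. Among them Soat1, which esterifies cholesterol, was called lower (-0.60, SE 0.105, limma adjusted p = 0.0149), a call not kept under normexp, spike-in scaling, either block, within row 1, at the stricter thresholds, or without control array 2, control array 3 or knockdown array 2. Abcg1, a sterol exporter, was called higher, at least 1.61-fold with a limma adjusted p of 0.000478, since none of the control arrays measured it well above background, and it was not called under normexp.

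**Figure D5:**
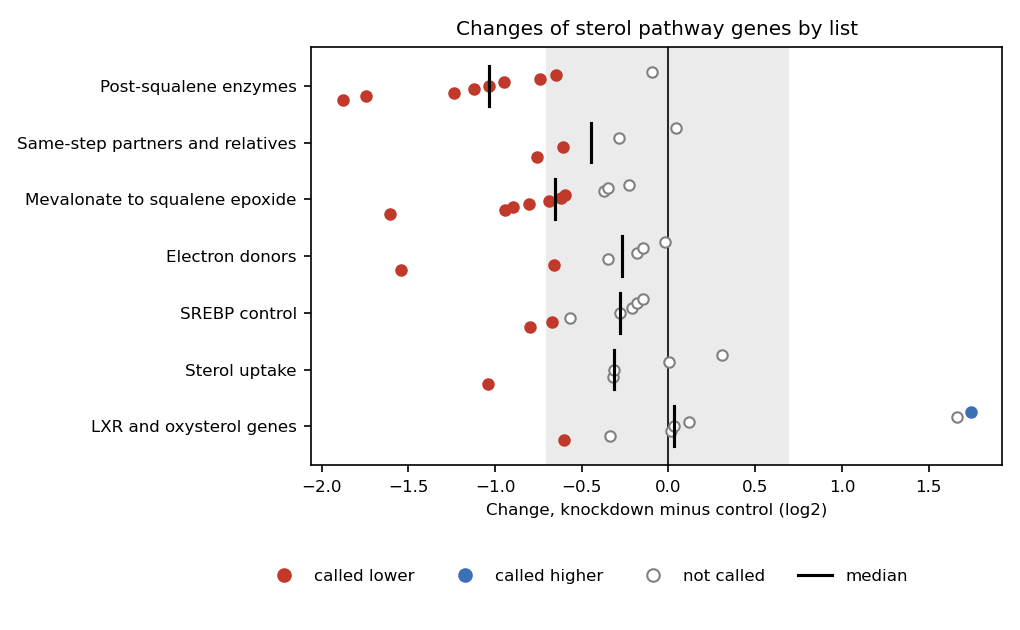
Change of each tested gene (knockdown minus control, log2) in the sterol lists, with red for called lower, blue for called higher and open grey for not called. Black bars are list medians and the band spans the 5th to 95th percentile of all genes tested (-0.70 to 0.69). The median of the post-squalene enzymes is -1.04, that of the mevalonate genes -0.65 and that of the LXR and oxysterol genes 0.031, whose rightmost point, Abcg1, was dim in control.

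The genes whose signal followed the mean of the 9 enzymes most closely over the 6 arrays were Sgsm1, Brms1l, Cyb5b, Dkk1 and Slc6a9, each with a Pearson r of 0.9995 or more. They changed by -1.30, -0.42, -1.54, -0.83 and -0.99. This ranking over 13960 genes is a description, since 2862 of them had an r above 0.9 and any gene that separates the groups cleanly in the same direction will score high. Within the 9 enzymes, each followed the mean of the other 8 with an r of 0.96 or more, apart from Hsd17b7 at 0.75.

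Markers of other cell types were checked as sums of signal in multiples of the 75th percentile of the array. Of the fibroblast markers, 3 of 4 were above background on all 6 arrays and Lum on 0, and their sum was 0.178 to 0.221 in control and 0.158 to 0.188 in knockdown. Of 2 leukocyte markers 1 was above background throughout, with sums of 0.0425 to 0.0591 and 0.0338 to 0.0392. Of 2 endothelial markers 1 was, with Cdh5 on 0 arrays, and the sums were 0.228 to 0.231 and 0.218 to 0.229. Each of these sums was below the signal at that percentile. The summed neuroblast signal was 463 to 477 in control and 425 to 441 in knockdown, with Th called lower (-0.62, SE 0.048, limma adjusted p = 0.00154). Col1a1 of the fibroblast list was called lower too (-0.77, SE 0.201, limma adjusted p = 0.0491), close to the threshold and not called under spike-in scaling, normexp, no filter on dim probes, either block, within row 1, at the stricter thresholds, or without control array 1, control array 2, knockdown array 1 or knockdown array 2. The part of these shifts in the enzyme results was not tested.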

How the data were processed

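The sample titles gave the group and replicate number of each array. Per the labels, labelled RNA was hybridised to single-colour arrays, and the authors extracted spots with Agilent Feature Extraction 10.10.1.1. The deposited scanner tables give the processed signal of each spot as a linear intensity after background correction by that software. The deposited series matrix holds log2 values that matched log2 intensity minus the 75th percentile of the array to within 0.0076 over 43742 single-spot probes, once a constant per probe was allowed for. Its values served as an alternative. The 6 arrays limit the precision.

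Control spots and outlier spots were left out, the 75th percentile of the array was subtracted from log2 processed intensity, and the spots of a probe were averaged. There were 55681 probes, of which 245 had no value on some array. Testing was restricted to probes that were never under percentile 20 of an array's non-control spots in at least 1 group, which left 42126. Symbols came from a RefSeq table of assembly GRCm38.p6 by accession without version, which matched 26582 probes, and a gene was read from its tested probe with the highest mean signal. The array annotation uses an older build, so the only coordinates given are those of RefSeq promoter windows. Knockdown was set against control by the two-sided moderated test of limma 3.58.1, run in R 4.3.3 with no covariate, and p-values were adjusted over the 42126 probes by the Benjamini-Hochberg method. The thresholds and the percentile filter follow the study. For neighbouring pathway steps, an exact permutation test ran through all 20 ways to assign the arrays. The fit was tested on simulated data.

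The members, the other gene lists and the markers were chosen with earlier results of these data known. Genes named are the 9 enzymes with all probes, the NF-Y subunits, genes of the same steps, up to 3 called genes with the largest change of each other pathway list, and the 5 genes most correlated with the mean of the enzymes. Srebf2, Th, Col1a1, Lum, Cdh5 and the interferon genes were singled out after their values were seen. Alternatives covered scaling, background correction, filters, model, replicate and slide row as blocks, thresholds, the mean of probes and leaving out each array. Normexp, with an offset of 50, used the median spot signal, since the mean was not in the tables used here. Some genes of these lists are not reported here.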

Additional observations from a re-analysis of the deposited data

How the results depend on the processing

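Members called lower numbered 8 under most of the 25 alternative settings, and 0 were called higher under any of them. The count was 5 at a fold change of 2, where Lss, Msmo1 and Dhcr7 dropped out. It was 7, without Dhcr7, at an adjusted p below 0.01, without knockdown array 2 and in both block fits, and 0 within slide row 1, where 0 genes were called lower and 0 higher. Leaving out each array gave 7 to 8 members called lower and a median of -1.09 to -1.0, with 747 to 831 genes called lower and 548 to 607 higher. The replicate number did not pair the arrays, since the deviations of same-numbered arrays correlated at 0.018, 0.067 and 0.0025. With the replicate number as a block, 7 members were called lower (Dhcr7 at -0.65, limma adjusted p = 0.051), beside 765 genes lower and 518 higher.

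The median change over the 9 genes was -1.15 when arrays were scaled on the median, -0.95 under normexp with the 75th percentile, -0.91 under normexp with quantile normalization, and -0.94 with the slide row as a block and within row 1. Scaling on the median moved the median of all genes to -0.11, so the members kept their distance from it. Hsd17b7 changed sign, to 0.0045 (limma adjusted p = 0.969), under normexp with quantile normalization, and was called under 0 of the settings.

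Over all genes, 824 were called lower and 644 higher. Scaling on the median gave 1175 lower and 382 higher, normexp with the 75th percentile 584 and 275, and normexp with quantile normalization 556 and 283. With no minimum fold change there were 2602 lower and 2597 higher, and at a fold change of 2 there were 286 and 181. The causes were not tested. The differences between neighbouring steps kept their signs under all alternatives run for them. Signal over background limited Abcg1 and some interferon-response genes, and not the 9 enzymes, which were well above it on all 6 arrays.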

Other observations

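Interferon-response genes were also examined. Of 17 genes with a tested probe, 9 were called higher and 0 lower in knockdown cells, beside 3.91% of all genes called higher, and the median change was 0.86. Under normexp 5 were called higher, with a median of 0.39 with the 75th percentile and 0.34 with quantile normalization. With the slide row as a block, at a fold change of 2 or at an adjusted p below 0.01 there were 6, and within slide row 1 there were 0. Isg15, a ubiquitin-like protein induced by interferon, rose by 1.31 (limma adjusted p = 0.000332), and Ifih1, a sensor of double-stranded RNA, rose by 1.18 (limma adjusted p = 0.0107). Both were well above background on all 6 arrays. Of the genes called higher, Parp14 and Gbp7 were well above background on 0 control arrays and Ifit2 on 1, so the size of their rise is uncertain. Both groups received the same vector backbone, but only the knockdown vector carried miR RNAi sequences. Carrying these sequences and the loss of NF-Y cannot be told apart here. Whether the shift of the interferon genes has a part in the change of the sterol enzymes was not tested.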
